A study of Mus musculus with 10 samples.

Results

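The endothelin pathway of the neural crest was followed through 7 genes: the ligands Edn1 and Edn3, the converting enzyme Ece1, the receptors Ednra and Ednrb, and the transcription factors Hand2 and Mef2c. Every probe set whose annotation gives 1 of these symbols and no other was kept, which gave 19 probe sets of 6 genes among 45101 on the array: 1 for Edn1, 4 for Edn3, 3 each for Ece1, Ednrb and Hand2, and 5 for Mef2c. No probe set carried Ednra as its single symbol, and Ednra is not analysed here. RNA came from the secondary palate of C57B6 mouse embryos at E14.5. The 5 mutant arrays (genotype Tgfbr2fl/fl;Wnt1-Cre) carry the Cre recombinase under the Wnt1 promoter, whose activity marks neural crest, together with floxed alleles of Tgfbr2, the gene of the type II TGF-beta receptor. The 5 control arrays (genotype Tgfbr2fl/fl, called wildtype in the titles) have the same floxed alleles and no Cre in the label. The comparison addresses palate gene expression when crest cells lose this receptor. Palate cells from outside the neural crest, such as vessels, muscle and epithelium, keep the receptor gene and share the sample.

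Endothelins are short peptides cut from larger precursors, and the membrane protease ECE1 makes the active form. Endothelin 1 acts mainly through the receptor EDNRA, which in mouse neural crest of the lower jaw leads through MEF2C to Dlx5, Dlx6 and Hand2 and gives the mandible its identity. Endothelin 3 acts through EDNRB, which neural crest cells need to become pigment cells and enteric neurons. Edn1, Ednrb and Mef2c are also active in blood vessels, Mef2c in muscle, and Hand2 in autonomic neurons.

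Values are RMA expression values on the log2 scale, rounded by the authors to 1 decimal, so a difference of 1 unit is a doubling and a step of 0.1 is the finest that can be seen. The array medians were 6.4 or 6.5. Precision is set by having 5 arrays in each group, and the labels do not say that each array came from a separate embryo, so the p-values measure only the spread between these samples. Control replicate 1 stood apart: its correlation with the other 9 arrays was 0.978 to 0.982, against 0.990 to 0.996 among the others. Its median deviation over 8 epithelial marker genes was 0.32, against -0.28 to -0.05 in the other controls, and results that rest on it are given with and without it. The 3 Tgfbr2 probe sets had log2 fold changes of -0.08, -0.04 and 0.08, with adjusted p of 0.54 or more in the limma fit. The sources used here do not place these probe sets inside or outside the floxed exons, so they do not check the deletion. The palate marker Shox2 read 11.54 ± 0.09 in mutant and 11.30 ± 0.27 in control arrays on its brightest probe set (SD, n = 5 each). Of 19 probe sets of 8 palate mesenchyme genes, 9 had positive and 10 negative log2 fold changes, and 5 had an unadjusted p under 0.05. Those of Tbx22 and 1 of the 6 of Prrx1 rose in mutants, by 0.62 and 0.30 (adjusted p = 0.0347 and 0.0357), and the 2 of Msx1 gave -0.68 and -0.84 and did not pass (adjusted p = 0.124 and 0.208). Of the smooth muscle and pericyte markers, Mylk rose by 0.72 and Myh11 fell by 0.52 (adjusted p = 0.0197 and 0.0145), and 0 of 11 macrophage probe sets were called. In bulk tissue, fewer cells of a type and less RNA per cell cannot be told apart.

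None of the 19 endothelin pathway probe sets passed the test for a difference between mutant and control palate. In a limma fit of all probe sets, 0 of the 19 reached an adjusted p under 0.05 (Benjamini-Hochberg over all 45101), whereas 3.25% of all probe sets did. At an unadjusted p under 0.05, 1 of the 19 passed, the probe set of Edn1, against 19.6% of all probe sets. Mutant and control arrays overlapped for all 19, and did not overlap for 4.86% of all probe sets. The median log2 fold change, mutant minus control, was -0.04 over the 19 and 0 over all probe sets. Of the 19, 12 had a negative value, 6 a positive one and 1 a value of 0, against 45.6% negative and 49.2% positive among all probe sets. The 95% confidence intervals of 16 of the 19 lay within a 1.5-fold change in either direction, as did those of 39674 of all 45101. The exceptions among the 19 were 1 probe set each of Ece1, Ednrb and Hand2.

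**Figure D1:**
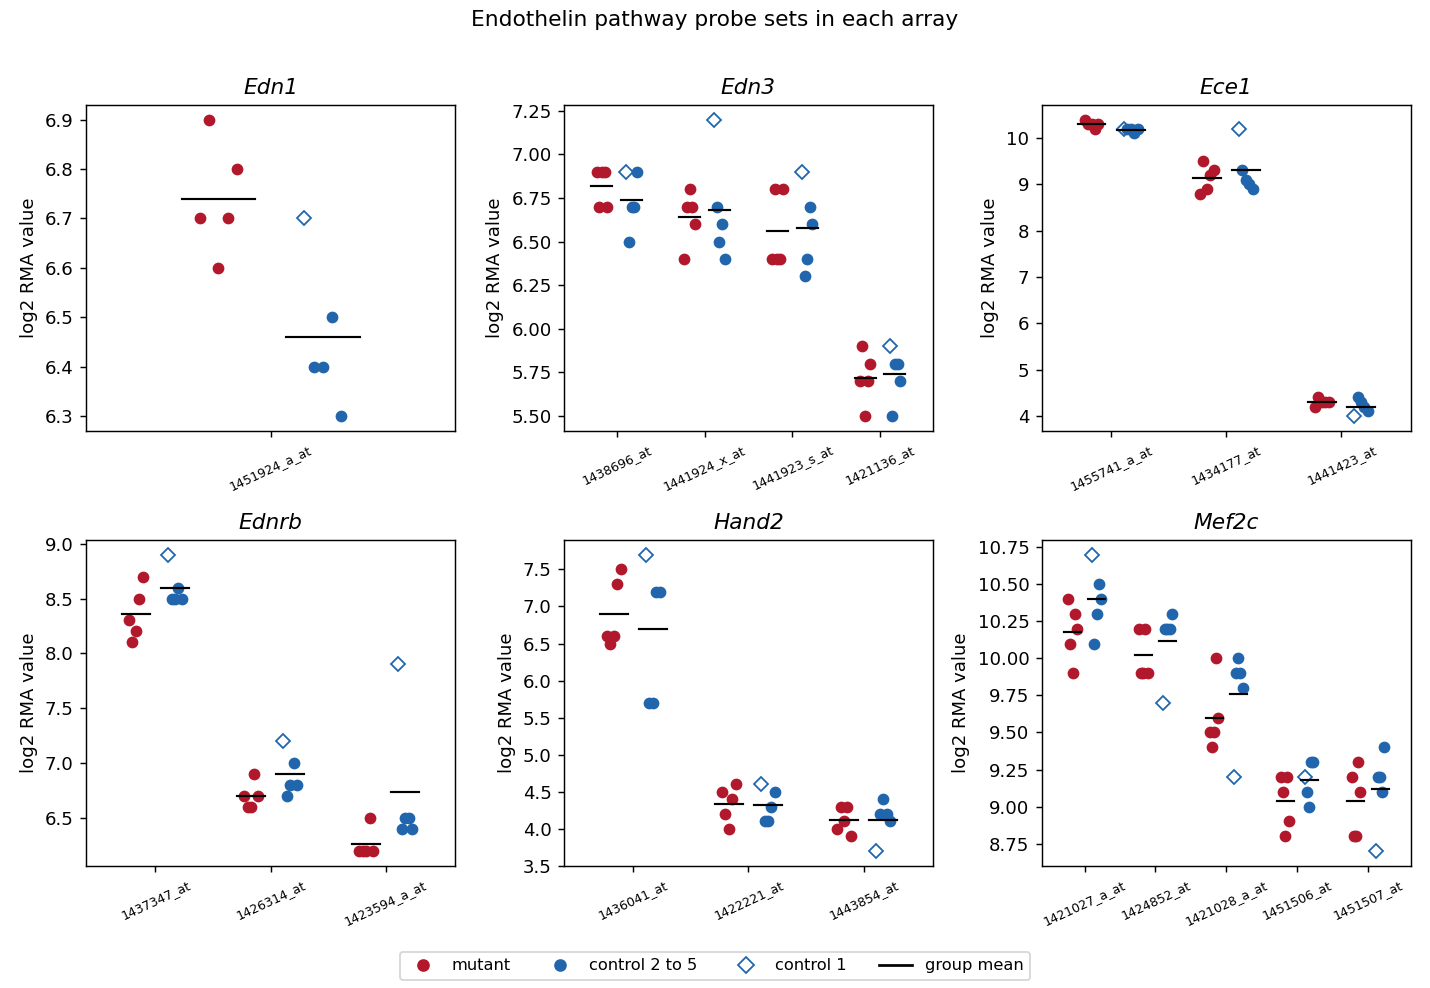
Log2 RMA values (vertical axes, a separate range per gene) of the 19 probe sets in the 5 mutant arrays (red, left of each pair) and 5 control arrays (blue, right), with the group mean as a bar and control replicate 1 as an open diamond. The groups overlap in every probe set, and control replicate 1 is the highest array in all 3 Ednrb probe sets.

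**Figure D2:**
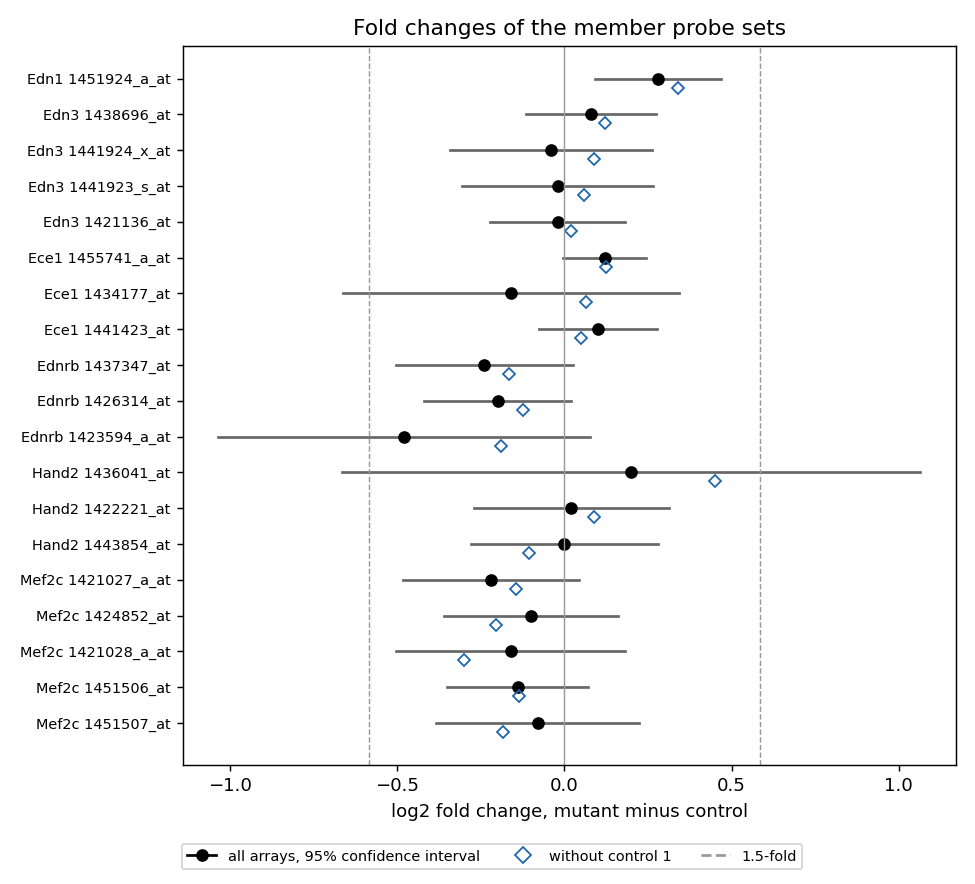
Log2 fold change, mutant minus control, of each probe set with its 95% confidence interval (black), and the value without control replicate 1 (open diamonds); dashed lines mark a 1.5-fold change. The interval of Edn1 lies above 0, from 0.09 to 0.47. Between the dashed lines stay 16 of the 19 intervals, against 39674 of 45101 over all probe sets (not drawn).

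Among the ligands, Edn1, which encodes endothelin 1, came closest to a difference. Its probe set (1451924_a_at) read 6.7, 6.9, 6.6, 6.7 and 6.8 in mutant replicates 1 to 5, against 6.7, 6.4, 6.4, 6.5 and 6.3 in control replicates 1 to 5. All mutant arrays lay above control replicates 2 to 5, and control replicate 1 lay inside the mutant range. The means were 6.74 ± 0.11 in mutant and 6.46 ± 0.15 in control arrays (SD, n = 5 each), a 1.21-fold difference. The log2 fold change was 0.28 (SE 0.09, 95% confidence interval 0.09 to 0.47), with an adjusted p of 0.0999 by limma, so Edn1 did not pass the test. Without control replicate 1 the log2 fold change was 0.34 and passed (adjusted p = 0.0273), in a fit that called 4.41% of all probe sets. In that setting Edn1 was the 1 probe set of the 19 whose groups did not overlap, against 6.42% of all. With limma's array weights Edn1 also passed (0.33, adjusted p = 0.0213), in a fit that called 6.43% of all probe sets. Over its 22 alternatives the log2 fold change stayed positive, from 0.15 to 0.34, and the adjusted p ran from 0.0213 to 0.719. Alternatives that changed only the probe sets tested, the variance model or the replicate block cannot move the log2 fold change, and gave 0.28.

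Skeletal muscle markers moved with Edn1 in the opposite direction. Of 22 muscle probe sets 5 fell and none rose, and the median deviation of the muscle genes from their means ran between -1.60 and 0.62 in mutants and between 0.40 and 2.02 in controls. Edn1 correlated with it at r = -0.77 over the 10 arrays and at -0.43 when both were taken as deviations from their group means. With the muscle median as a covariate the log2 fold change of Edn1 was 0.15 (adjusted p = 0.719 by limma), in a fit that called 1 of all 45101 probe sets. Blood vessel markers, 12 genes that share a tissue source with Edn1, showed 1 decrease among 19 probe sets, that of the tight junction gene Cldn5 (-0.54, adjusted p = 0.023). Their median deviation was -0.11 to 0.10 in mutant and -0.28 to 0.14 in control arrays, and r with Edn1 was -0.28. Epithelial markers followed Edn1 with r = 0.67, or 0.68 without control replicate 1. Of their 16 probe sets 0 were called by limma, and 7 had an unadjusted p under 0.05, among them those of Krt8 and Krt18 at 0.48 to 0.56 and 3 of Trp63 at -0.28 to -0.24. Their median deviation was -0.08 to 0.24 in mutant and -0.28 to 0.32 in control arrays, the highest being control replicate 1 and the other controls lying at -0.28 to -0.05. The part of these cell types in the Edn1 values was not tested.

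The sequence before and after the start of Edn1 is shown because its human counterpart is a known target of TGF-beta through SMAD and AP-1 sites near the start, and that of Ednrb is shown beside it because its values lay on the other side of 0. Both are RefSeq windows of 300 bases on GRCm38.p6, from 250 bases before the start to 50 after, written 5′ to 3′. Edn1 lies on the plus strand at chr13:42301226-42301525, and Ednrb on the minus strand at chr14:103843652-103843951. The RefSeq span of Ednrb reaches 103844508, so its window is that of a transcript start inside the gene. Capitals mark CAGAC, a sequence that SMAD proteins bind, or its reverse complement GTCTG, and in Edn1 also TTATCT, the reverse complement of the GATA site AGATAA, and TGACTAA, a relative of the AP-1 site.
Edn1: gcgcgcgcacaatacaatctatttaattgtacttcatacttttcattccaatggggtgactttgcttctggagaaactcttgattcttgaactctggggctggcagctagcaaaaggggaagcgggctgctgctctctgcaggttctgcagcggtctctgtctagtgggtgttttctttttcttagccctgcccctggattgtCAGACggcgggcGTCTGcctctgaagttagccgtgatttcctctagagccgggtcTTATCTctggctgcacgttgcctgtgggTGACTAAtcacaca
Ednrb: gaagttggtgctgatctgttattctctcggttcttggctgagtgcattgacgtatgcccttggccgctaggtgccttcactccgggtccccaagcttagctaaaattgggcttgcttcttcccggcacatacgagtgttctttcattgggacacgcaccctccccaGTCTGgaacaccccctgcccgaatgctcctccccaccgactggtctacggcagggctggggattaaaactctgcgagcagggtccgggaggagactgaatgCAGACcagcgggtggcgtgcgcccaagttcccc

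Searched on both strands, CAGAC occurred 2 times in each of these windows, at bases 204 and 216 of the Edn1 window and at bases 167 and 268 of the Ednrb window. It is common: 49.6% of 32851 RefSeq promoter windows of this length hold it, and 9 of the 12 windows of the 7 genes do. TGACTAA, which 2.35% of all windows hold, and AGATAA, which 11.2% hold, occurred once each in the Edn1 window and not in that of Ednrb. In Edn1 both lie after the RefSeq start that sets this window, AGATAA (as TTATCT) at 8 and TGACTAA at 36 bases from it. Their places relative to any other transcript start were not examined. The standard AP-1 letters TGANTCA, held by 7.81% of all windows, were in neither. These matches are letters in a window, and binding was not measured.

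Edn3, which encodes endothelin 3, did not pass the test on any of its 4 probe sets. Its brightest probe set (1438696_at) read 6.9, 6.7, 6.9, 6.9 and 6.7 in mutant and 6.9, 6.5, 6.7, 6.7 and 6.9 in control arrays. The groups covered nearly the same range, and the log2 fold change was 0.08 (SE 0.09, interval -0.11 to 0.27, adjusted p = 0.653 by limma). The other 3 Edn3 probe sets gave -0.04, -0.02 and -0.02. Of these, 1441923_s_at and 1441924_x_at belong to classes of Affymetrix probe sets that can detect more than 1 transcript, so their values are uncertain for this gene.

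Ece1, the protease that makes active endothelin, did not pass the test either; its brightest probe set (1455741_a_at) read 10.4, 10.3, 10.3, 10.2 and 10.3 in mutant against 10.2, 10.2, 10.2, 10.1 and 10.2 in control arrays. The mutant arrays were higher except that mutant replicate 4 equalled 4 of the controls. The log2 fold change was 0.12 (SE 0.06, interval -0.004 to 0.24, adjusted p = 0.268 by limma). A second probe set (1434177_at) read 8.8, 9.5, 8.9, 9.2 and 9.3 in mutant and 10.2, 9.3, 9.1, 9.0 and 8.9 in control arrays. Control replicate 1 was 0.9 above the next control on it, and its log2 fold change was -0.16 with that array and 0.07 without it, with adjusted p of 0.742 and 0.833. The remaining probe set (1441423_at) lay between 4.0 and 4.4 in all arrays, below the lower quartile of each array (4.6 or 4.7), and gave 0.10.

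The receptor gene Ednrb had values below 0 on all 3 of its probe sets, none of which passed the test. The brightest (1437347_at) read 8.3, 8.1, 8.2, 8.5 and 8.7 in mutant and 8.9, 8.5, 8.5, 8.6 and 8.5 in control arrays. Mutant replicates 1 to 3 lay below every control, and mutant replicates 4 and 5 lay among them. Its log2 fold change was -0.24 (SE 0.12, interval -0.50 to 0.02, adjusted p = 0.300 by limma). The second (1426314_at) gave -0.20 (interval -0.42 to 0.02, adjusted p = 0.298), from 6.7, 6.6, 6.6, 6.9 and 6.7 in mutant against 7.2, 6.7, 6.8, 7.0 and 6.8 in control arrays. The third (1423594_a_at) read 6.2, 6.2, 6.2, 6.5 and 6.2 in mutant and 7.9, 6.4, 6.5, 6.5 and 6.4 in control arrays, and its log2 fold change was -0.48 (interval -1.04 to 0.08, adjusted p = 0.324). Control replicate 1 stood 1.4 above every other control on it. Without that array the 3 log2 fold changes were -0.17, -0.13 and -0.19 (adjusted p = 0.424, 0.406 and 0.173), each smaller than with it. All 3 stayed below 0 in each alternative run for them, and the adjusted p was between 0.0569 and 0.823. Here too, some alternatives, such as the replicate block, cannot move the log2 fold change. The 3 probe sets followed each other, with r between 0.71 and 0.87 over the 10 arrays and between 0.53 and 0.84 without control replicate 1.

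Pigment cell and glial markers, the crest lineages that carry Ednrb, were not called either. Of 22 probe sets of 12 genes 0 passed in the limma fit, and 3 did at an unadjusted p under 0.05. Positive log2 fold changes were found for 16 of the 22 (72.7%, against 49.2% of all probe sets) and negative ones for 6. Their median deviation was -0.05 to 0.15 in mutant and -0.17 to 0.08 in control arrays. The pigment enzyme genes Tyr and Tyrp1 read near the floor of the arrays, with group means between 2.88 and 4.00 in mutant and between 2.78 and 3.98 in control arrays. The glial and crest factor Sox10 had log2 fold changes of -0.06, 0.06 and 0.12. S100b, which had the smallest p of the list, gave 0.28 and 0.30 (adjusted p = 0.125 and 0.168 by limma). Without control replicate 1, r of the 3 Ednrb probe sets was between -0.76 and -0.72 with the epithelial median and between 0.58 and 0.80 with the muscle median over 9 arrays. With it, r was between -0.18 and 0.34 and between 0.33 and 0.53. As deviations from the group means over the 10 arrays, r was between 0.12 and 0.78 with epithelium. It was between -0.10 and 0.21 with muscle. These within-group values include control replicate 1, so they do not show whether the likeness seen without it held within the groups. For the autonomic neuron markers, a list described under Hand2, r within groups was between 0.59 and 0.79, again with control replicate 1 included. Over the 10 arrays r with these markers was between 0.33 and 0.46, and without control replicate 1 between -0.22 and 0.29. The part of these cell types in the Ednrb values was not tested.

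Hand2, a basic helix-loop-helix factor of the lower jaw, heart, limb and autonomic neurons, varied more within the groups than between them. Its brightest probe set (1436041_at) read 6.6, 6.5, 6.6, 7.3 and 7.5 in mutant and 7.7, 5.7, 5.7, 7.2 and 7.2 in control arrays. Control replicates 2 and 3 were the lowest arrays and control replicate 1 the highest, a range of 2.0 that no other probe set of the 19 reached. The means were 6.90 ± 0.46 in mutant and 6.70 ± 0.94 in control arrays (SD, n = 5 each), and the log2 fold change of 0.20 had an interval of -0.66 to 1.06 (adjusted p = 0.814 by limma). The interval therefore does not exclude a difference of 1.5-fold in either direction on this probe set. Without control replicate 1 the log2 fold change was 0.45 (adjusted p = 0.512). Both other Hand2 probe sets read between 3.7 and 4.6 in all arrays, below the lower quartile, and gave 0.02 and 0. The 3 did not follow one pattern, with r between -0.68 and 0.78.

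The genes most like Hand2 over the 10 arrays were Phox2a (r = 0.97), a homeobox gene of autonomic neurons, and Elavl4 (r = 0.95), a neuronal RNA-binding protein. Phox2a read 6.0, 5.8, 6.0, 6.5 and 6.6 in mutant and 7.0, 4.9, 5.1, 6.2 and 6.1 in control arrays, so the same arrays were low and high. After this was seen, a list of 14 autonomic neuron markers was written, of which 13 had a probe set. Of its 28 probe sets 0 were called in the limma fit and 4 had an unadjusted p under 0.05. The median deviation of the list was -0.22 to 0.42 in mutant and -0.58 to 0.39 in control arrays, and it followed Hand2 with r = 0.97. With Phox2a and Elavl4 left out, r over the 11 other genes was 0.91, and 0.89 when control replicate 1 was also left out. Since the list was chosen for this pattern, these are descriptions, and the part of nerve tissue in the Hand2 values was not tested. With the list's median as a covariate, also chosen after seeing the data, the log2 fold change of Hand2 was -0.22 (adjusted p = 0.221). The noradrenergic enzyme gene Th, also on the list, was not high and low in the same arrays, and read 5.0, 5.2, 5.5, 4.9 and 5.2 in mutant and 5.2, 5.1, 5.2, 5.2 and 5.3 in control arrays.

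**Figure D3:**
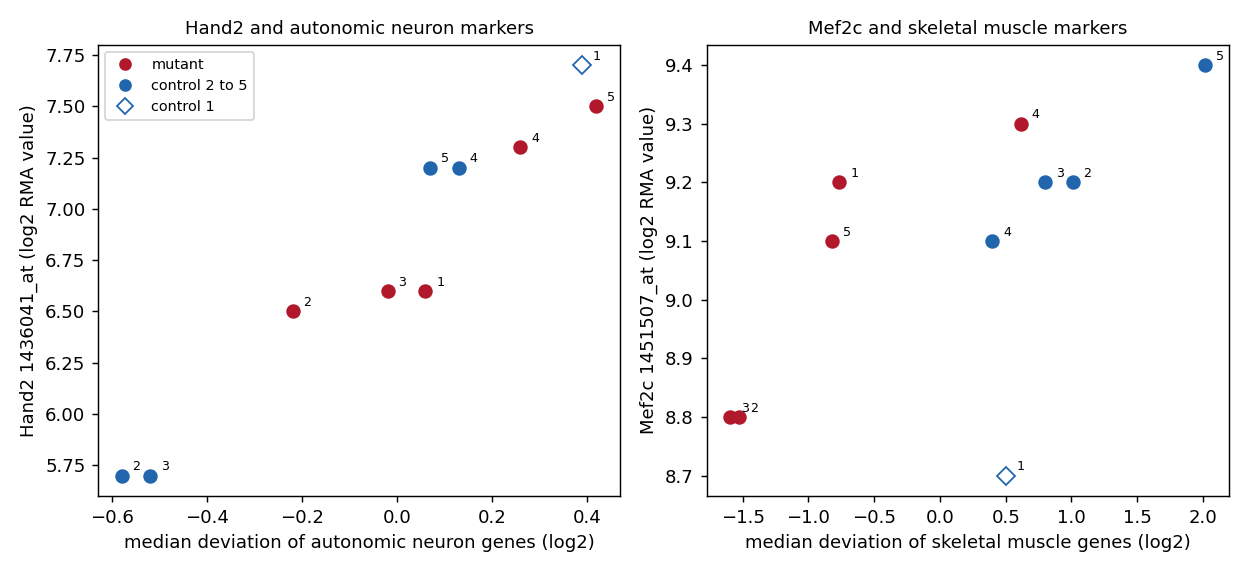
Left, Hand2 (1436041_at, vertical axis, log2) against the median deviation of 13 autonomic neuron genes (horizontal axis, log2); right, Mef2c (1451507_at) against that of 14 skeletal muscle genes; 1 point per array, numbered by replicate, mutant red and control blue, control replicate 1 open. Each panel shows the probe set of its gene with the highest r. Hand2 1436041_at runs with the neuron markers across both groups (r = 0.97), while 1422221_at and 1443854_at have 0.79 and -0.67. Mef2c 1451507_at runs with the muscle markers (r = 0.63, or 0.87 without control replicate 1), and the other Mef2c probe sets have 0.51 to 0.61.

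Mef2c, a MADS-box factor that acts in neural crest, muscle and endothelium, had values below 0 on all 5 of its probe sets, and none passed the test. The 5 log2 fold changes ran from -0.22 to -0.08, with adjusted p between 0.343 and 0.784 by limma, and all 5 intervals lay within a 1.5-fold change. Without control replicate 1 the 5 values ran from -0.30 to -0.14, with 1424852_at at -0.21, 1421028_a_at at -0.30 and 1451507_at at -0.19, against -0.10, -0.16 and -0.08 with it, and the adjusted p was between 0.147 and 0.488. Its brightest probe set (1421027_a_at) read 10.4, 10.1, 9.9, 10.3 and 10.2 in mutant and 10.7, 10.1, 10.3, 10.5 and 10.4 in control arrays, and its log2 fold change was -0.22 (SE 0.12, interval -0.48 to 0.04). The groups overlapped widely. A set of 3 (1424852_at, 1451506_at and 1451507_at) was designed from 1 transcript accession, so these are not independent readings. The probe sets disagreed on control replicate 1, which was the highest array on 1421027_a_at, at 10.7, and the lowest on 1421028_a_at, 1424852_at and 1451507_at, at 9.2, 9.7 and 8.7.

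Muscle markers were lower in mutants and moved with Mef2c. In mutant replicate 4, the mutant with the highest muscle median (0.62, against -1.60 to -0.77 in the other mutants), Mef2c was the highest or joint highest mutant array on 4 of its 5 probe sets. The probe set 1451507_at read 9.2, 8.8, 8.8, 9.3 and 9.1 in mutant and 8.7, 9.2, 9.2, 9.1 and 9.4 in control arrays. Over the 10 arrays r with the muscle median was between 0.51 and 0.63 for the 5 probe sets, and between 0.55 and 0.87 without control replicate 1. As deviations from the group means r was 0.20 for 1421027_a_at and between 0.46 and 0.81 for the other 4. The likeness was not particular to muscle. With the epithelial median, r was between -0.80 and -0.74 for 1424852_at, 1421028_a_at and 1451507_at, and between -0.78 and -0.73 within groups. For 1421027_a_at and 1451506_at it was -0.12 and -0.29, and within groups 0.18 and -0.09. With the muscle median as a covariate, 4 of the 5 Mef2c values turned positive, to between 0.03 and 0.37, with adjusted p between 0.453 and 0.960, while 1421027_a_at gave -0.12. Among the muscle markers, the myogenic factor Myf5 fell by 1.86 (adjusted p = 0.00682) and the sarcomere gene Actn2 fell by 1.98 (adjusted p = 0.0262). The part of muscle or other tissue in the Mef2c values was not tested.

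Other genes of the pathway were taken from 4 lists, with 36 genes measured. Of their 89 probe sets 0 were called by limma, and 18 (20.2%) had an unadjusted p under 0.05, near the 19.6% of all probe sets. Their median log2 fold change was 0. Among 9 probe sets of peptides and peptidases, values ran from -0.24 to 0.18, and Ece2, a relative of Ece1, had the smallest p (-0.24, adjusted p = 0.0900). Among 35 probe sets of G proteins and phospholipases that endothelin receptors use, values ran from -0.32 to 0.20, and Gna13, a G-protein alpha subunit, had the smallest p (-0.32, adjusted p = 0.0891). Among 26 probe sets of MEF2 paralogs and HAND partners, Tcf4, a class I helix-loop-helix partner, was 0.26 higher and its mutant arrays all lay above the controls, but it did not pass (adjusted p = 0.0687).

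The list of the lower jaw program and its regulators had the most negative median of the 4, -0.12 over 19 probe sets of 12 genes, and 6 of the 19 had an unadjusted p under 0.05. It also holds Jag1 and Pou3f3, genes of the upper jaw that endothelin 1 holds down in the lower one, with values of -0.38 to -0.02, so its median does not stand for lower jaw targets alone. Barx1, a homeobox gene of the jaw and molar region, averaged 10.06 ± 0.15 in mutant and 10.40 ± 0.12 in control arrays (SD, n = 5 each). Of the mutants, only replicate 5 reached the control range, and the log2 fold change of -0.34 had an adjusted p of 0.0587 by limma. Barx1 passed in some alternatives, among them the fit without control replicate 1 (-0.37, adjusted p = 0.0459), the fit without mutant replicate 5 (-0.40, adjusted p = 0.0415) and the fit with 1 probe set per gene (adjusted p = 0.0325). The endothelin targets Dlx5 and Dlx6, named here after their values were seen, gave -0.12 and -0.48 (adjusted p = 0.487 and 0.127), and a probe set of Dlx4, of the same family, gave 0.36 (adjusted p = 0.109). Hand1, the paralog of Hand2, gave 0.08 and 0.14 on its probe sets.

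**Figure D4:**
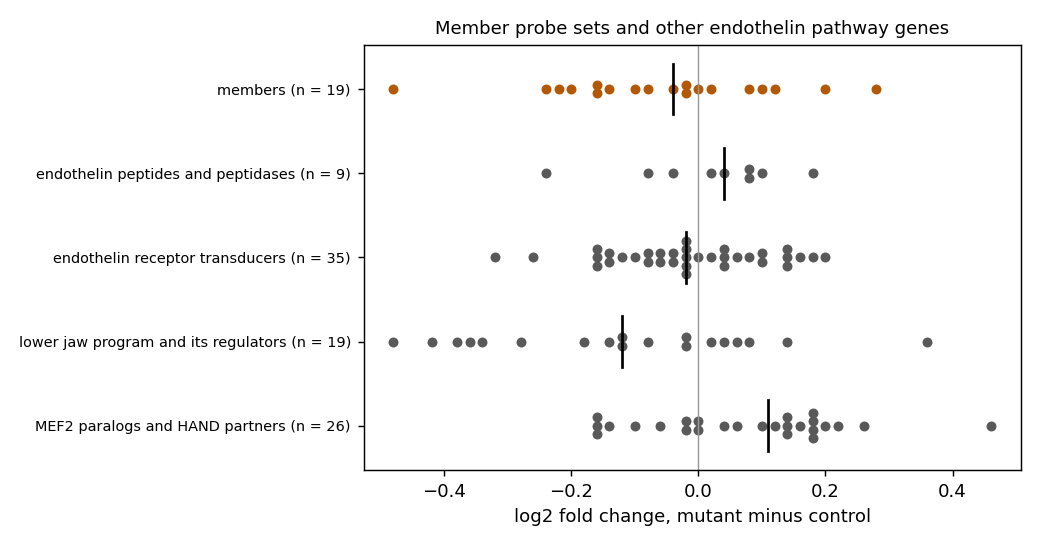
Log2 fold change, mutant minus control (horizontal axis), of the 19 member probe sets and of the probe sets of the 4 lists of other pathway genes, 1 point per probe set, with the median of each row as a black bar. No point passed the test in the fit of all arrays, and the medians lie between -0.12 and 0.11.

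The genes whose values ran most like the others over the 10 arrays were found by the Pearson r of their probe sets with the brightest probe set of each. For Edn1 these were Plekhg6 and Add3 (r = 0.96 each), whose log2 fold changes were 0.22 and 0.18. For Ednrb they were Fzd8, a Wnt receptor gene (r = 0.97), and Irf2bp2 (r = 0.96), with -0.28 and -0.20. For Ece1 they were Rims2 and Slc25a48 (r = 0.95 and 0.94), of which Rims2 rose by 0.38 (adjusted p = 0.0205 by limma). For Mef2c they were Pcdh1 and Smarcc1 (r = 0.95 each). For Edn3 they were Hif1a (r = 1) and Cttn (r = 0.95), but the Hif1a values spanned only 0.2 over all arrays and those of Edn3 0.4, so this likeness rests on few steps of 0.1. Each r is the highest among all annotated probe sets and describes these 10 arrays only.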

How the data were processed

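The deposited values are log2 expression values that the authors made with RMA, per the submitters' processing notes. No RMA version is stated there. Every value is a multiple of 0.1. The table has a column for each of the 10 arrays and no other. No arrays were duplicates, with at most 26.8% of values identical between 2 of them. Of 45101 probe sets, 34958 carried 1 gene symbol, 932 several and 9211 none in the platform annotation.

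All probe sets were fitted in R 4.3.3 with limma 3.58.1 (lmFit, eBayes), as mutant minus control in a two-sided test, without filter or covariate, with Benjamini-Hochberg adjustment over all 45101, and were called at an adjusted p under 0.05. Errors are SD over 5 arrays or the SE of the fit. A gene list's median deviation is the median, over its genes at their brightest probe set, of each array's difference from the gene's mean. The fit was tested on simulated data with 45101 probe sets of the same means and spreads: of 50 probe sets given each size of change, it recovered 7 at 1.2-fold, 34 at 1.5-fold, 43 at 2-fold and 50 at 3-fold, and it called 6 that had none.

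Named are all member probe sets, in each pathway list the called genes or the 1 with the smallest p, in each cell type list up to 2 called genes with the smallest p, and per member the 2 genes of highest r. Tgfbr2, Dlx5, Dlx6, Hand1, Th, Shox2, Sox10, S100b, Tyr, Tyrp1, Msx1, Krt8, Krt18, Trp63, Jag1, Dlx4, Pou3f3 and, in the closing section, Foxf1 stand outside this rule and were chosen after their values were seen. Members and lists were chosen with earlier results of these data known. Alternatives changed the probe sets tested, the summary per gene, the variance model, the normalization, array weights, covariates, a replicate block and each array in turn.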

Additional observations from a re-analysis of the deposited data

Results flagged for a closer look

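Of 38 groups of 5 arrays (19 probe sets in mutant and control), 6 held an array far from the other 4 by Dixon's ratio, where chance gives about 1 in 20, and 4 of the 6 were control replicate 1. Control replicate 1 was the highest control on Ednrb 1437347_at, at 8.9 against 8.6 for the next, and on Ednrb 1423594_a_at, at 7.9 against 6.5. It was the lowest control on Mef2c 1424852_at, at 9.7 against 10.2, and on Mef2c 1421028_a_at, at 9.2 against 9.8. Mutant replicate 4 read 6.5 on Ednrb 1423594_a_at, where the other mutants were all at 6.2. Control replicate 4 read 10.1 on Ece1 1455741_a_at, where the other controls were all at 10.2, a single step of rounding.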

How the results depend on the processing

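No member probe set was called in the fit of all arrays or in any alternative, except 1, that of Edn1, with array weights and without control replicate 1 (0 to 1 over fits without 1 array). Of all probe sets 1468 were called, against 2901 with array weights, 98 with a replicate block, 1 with the muscle median, 2996 with the vessel median and 911 with Eif2s3y, a Y-linked gene, as a covariate, and 464 to 1988 without 1 array. Replicate numbers did not pair the arrays: same-numbered deviations correlated at -0.06 to 0.07 and 0 of 5 mutants correlated best with their own number. The replicate block called 0 members. Each number occurs equally in both groups, so the block leaves every log2 fold change as it was and is no check on direction.

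Among other pathway genes 0 probe sets were called. The count was 2 with the brighter 60% of probe sets, 1 with single-symbol probe sets, 2 with an intensity trend and robust fitting, 1 with median centring, 4 with array weights, 2 with the vessel median, 1 with Eif2s3y, 1 with the brightest and 1 with the mean probe set per gene, and 0 to 2 without 1 array. These were Barx1 and Tcf4, and also Foxf1 and Pou3f3 with array weights, Foxf1 without control replicate 2 and Dlx4 without control replicate 4. Of cell type probe sets 10 were called, against 18 with single-symbol probe sets, 30 with array weights, 0 with a replicate block, 0 with the muscle median, 23 with the vessel median, 2 with Eif2s3y, 17 with the brightest probe set per gene, and 2 to 20 without 1 array.

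The direction of uncalled values turned in these cases, the cause of which was not tested. With array weights, Edn3 1441924_x_at gave 0.077, Edn3 1441923_s_at 0.010 and Ece1 1434177_at 0.044. With the muscle median, Mef2c 1424852_at, 1421028_a_at, 1451506_at and 1451507_at gave 0.18, 0.20, 0.027 and 0.37. With Eif2s3y, Mef2c 1451507_at gave 0.066, Hand2 1436041_at -0.12 and Hand2 1422221_at -0.00254. With the neuron median, added after seeing the data, Hand2 1436041_at gave -0.22 and Hand2 1422221_at -0.090, which gave -0.018 after quantile normalization. Without 1 array, the ranges were -0.11 to 0.09 for Edn3 1441924_x_at, -0.09 to 0.06 for Edn3 1441923_s_at, -0.080 to 0.035 for Edn3 1421136_at, -0.26 to 0.065 for Ece1 1434177_at, -0.05 to 0.45 for Hand2 1436041_at and -0.045 to 0.11 for Hand2 1422221_at. Values rounded to 0.1 limit all of these.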
